A study of Mus musculus with 4 samples.

Results

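The contacts of the *Lef1* gene itself were followed from the 5′ end to the 3′ end, as read by 4C-Seq from its own promoter and from Leaf, a conserved element centromeric to the gene that the study names as an enhancer. In the mm10 (GRCm38) assembly, *Lef1* (ENSMUSG00000027985.14) lies on the plus strand at chr3:131110471-131224356, a length of 113886 bp. The gene was represented by the fragments with a midpoint inside it. These were 145 of the 2350945 fragments in the deposited table, of which 2 next to the promoter viewpoint had been left empty by the authors, so that 143 were available from the promoter and 145 from Leaf.

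*Lef1* encodes an HMG-box transcription factor that binds β-catenin in the nucleus and carries the Wnt signal to its target genes. In the embryonic whisker pad it is expressed in the mesenchyme and in the epithelial placodes from which the vibrissae form. The adult kidney was the study's negative control, and its *Lef1* expression is described there as absent in one place and low in another. 4C-Seq ligates crosslinked restriction fragments to a chosen viewpoint, so that a fragment often near the viewpoint receives a high score. Ligation generally falls with distance along the chromosome, and a gradient along a gene that starts beside the viewpoint is the usual background of such a profile.

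The series holds 4 libraries of OF1 mice. The E12.5 whisker pads, pooled from 120 pads per condition according to the series' design text, and the adult kidneys were each digested to single cells and read once from the *Lef1* promoter and once from Leaf, and the labels name no mutation or treatment. The study's methods give the same number of pads but also name a slightly later stage, so that the stage of the pads is not fully settled. As there was 1 library per tissue and viewpoint, a difference between the tissues could not be set against replicates, and none was tested. Whole whisker pad and whole kidney are mixtures of cell types, and fewer cells with a contact cannot be told apart from a weaker contact in each cell. Tissue and age also cannot be told apart, since the whisker pads were embryonic and the kidneys adult.

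The *Lef1* transcript used for positions here (GENCODE M21) has 12 exons. The third begins 4.94 kb after the start, and intron 3 then covers 69.1 kb, or 60.7% of the gene. Exons 4 to 11 begin between 74.2 kb and 94.5 kb after the start, and the last exon ends the gene after an intron of 18.1 kb. NlaIII, the primary cutter, leaves 503 complete fragments inside the gene, of which 176 hold a site of DpnII, the secondary cutter. Of these 176, 143 had a score. All 145 scored fragments were flanked by NlaIII sites and held a DpnII site. They were 44 to 1939 bp long with a median of 376 bp, and together they covered 52.5% of the bases of the gene. The largest stretch without a scored fragment was 3.45 kb.

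The fragments with the highest score in each library are shown first, since much of each profile rests on them. The recognition sites of NlaIII (CATG) and DpnII (GATC) are in capitals, and all sequences are the plus strand of GRCm38.p6. From the promoter, the highest fragment was the same in both tissues, chr3:131113125-131113686 in intron 1, of which the last 300 bases with the closing NlaIII site are given (chr3:131113391-131113690). From Leaf, the highest fragment in whisker pad was chr3:131110073-131111672, which holds the annotated start of the gene, and the stretch from the first codon of *Lef1* to the closing NlaIII site is given (chr3:131111472-131111676). In kidney it was chr3:131116217-131116660 in intron 3, of which the first 300 bases with the opening NlaIII site are given (chr3:131116213-131116512).
Highest from the promoter, both tissues: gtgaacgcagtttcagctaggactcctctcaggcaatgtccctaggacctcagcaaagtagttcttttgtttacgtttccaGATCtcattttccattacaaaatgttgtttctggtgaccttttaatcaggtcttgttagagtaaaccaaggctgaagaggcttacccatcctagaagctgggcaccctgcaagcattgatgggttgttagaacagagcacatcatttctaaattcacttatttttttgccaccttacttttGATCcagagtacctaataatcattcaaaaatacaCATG
Highest from Leaf, whisker pad: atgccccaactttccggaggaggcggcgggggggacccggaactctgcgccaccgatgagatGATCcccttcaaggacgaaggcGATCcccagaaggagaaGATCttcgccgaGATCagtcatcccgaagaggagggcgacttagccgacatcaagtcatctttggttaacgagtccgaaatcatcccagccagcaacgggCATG
Highest from Leaf, kidney: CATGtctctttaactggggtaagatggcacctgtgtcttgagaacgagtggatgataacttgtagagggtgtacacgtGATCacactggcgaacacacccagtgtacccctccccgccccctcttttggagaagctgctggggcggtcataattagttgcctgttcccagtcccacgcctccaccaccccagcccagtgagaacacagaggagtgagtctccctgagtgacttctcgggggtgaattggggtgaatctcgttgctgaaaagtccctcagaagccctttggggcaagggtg

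Scores were normalized by dividing each library by its mean over the chromosome 3 fragments within 1 Mb of its viewpoint, so that 1 is the mean of that 2-sided region. From the promoter, this mean raw score was 101 (whisker pad) and 21.3 (kidney), and from Leaf 65.0 and 16.5. Summed over all deposited fragments, the raw scores came to 854206 in whisker pad and 821297 in kidney from the promoter, and to 837132 and 787783 from Leaf. The lower kidney means within 1 Mb thus did not go with equally lower totals. The scores were not whole reads, the number of reads behind each library is unknown, and an exact 0 may be a fragment missed at this depth. Within 1 Mb of the promoter, whisker pad had 59.5% of its fragments above 0 against 29.1% for kidney, and within 1 Mb of Leaf 37.1% against 14.0%. This difference in detection runs through every comparison of tissues below, and its part in them was not tested.

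From the promoter, *Lef1* had a higher mean normalized score than any of the other 8 protein-coding genes within 1 Mb with at least 4 scored fragments, in both tissues. From Leaf the same held in both tissues. *Lef1* starts 1.71 kb from the promoter viewpoint and 90.9 kb from the Leaf viewpoint, nearer to each than the other 8 genes. Its rank and its share of the score below therefore cannot be told apart from its nearness. The mean over the gene was 6.57 in kidney and 5.07 in whisker pad from the promoter, and 1.85 in whisker pad and 1.43 in kidney from Leaf. The order of these 4 levels cannot be set against a replicate spread. From the promoter, the whisker pad scores ran from 0.000296 through a median of 3.50 to 65.1, and the kidney scores from 0 through 2.77 to 150.3. From Leaf, the whisker pad scores ran from 0 through 0.998 to 11.2, and the kidney scores from 0 through 0 to 24.0. Kidney thus had the higher maximum and the lower median from both viewpoints. *Lef1* is covered by 7.13% of the fragments within 1 Mb of the promoter and held 36.1% of the whisker pad score and 46.8% of the kidney score. From Leaf, it is covered by 7.28% of the fragments and held 13.4% and 10.4%. These are shares of the score within 1 Mb. Of the score on all of chromosome 3, *Lef1* held 22.6% in whisker pad and 17.6% in kidney from the promoter, the opposite order. From Leaf it held 7.55% and 3.56% of that score.

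The share of *Lef1* fragments with any score was highest for whisker pad from the promoter and lowest for kidney from Leaf. From the promoter, 143 of 143 fragments were above 0 in whisker pad (95% Wilson interval 97.4% to 100%) and 126 in kidney (88.1%, 81.8% to 92.4%). From Leaf, 121 of 145 were above 0 in whisker pad (83.4%, 76.6% to 88.6%) and 44 in kidney (30.3%, 23.4% to 38.3%). These intervals cover the counting of fragments only, and neighbouring fragments are not independent. The longest run of consecutive fragments at 0 was 17 in the kidney library from Leaf, from 86.5 kb to 96.2 kb after the start, where exons 9 to 11 lie. In the kidney library from the promoter and the whisker pad library from Leaf, the longest run was 2. A few fragments carried much of the kidney score, as the 10 highest held 49.8% of it from the promoter and 58.6% from Leaf, against 31.8% and 27.2% in whisker pad.

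**Figure D1:**
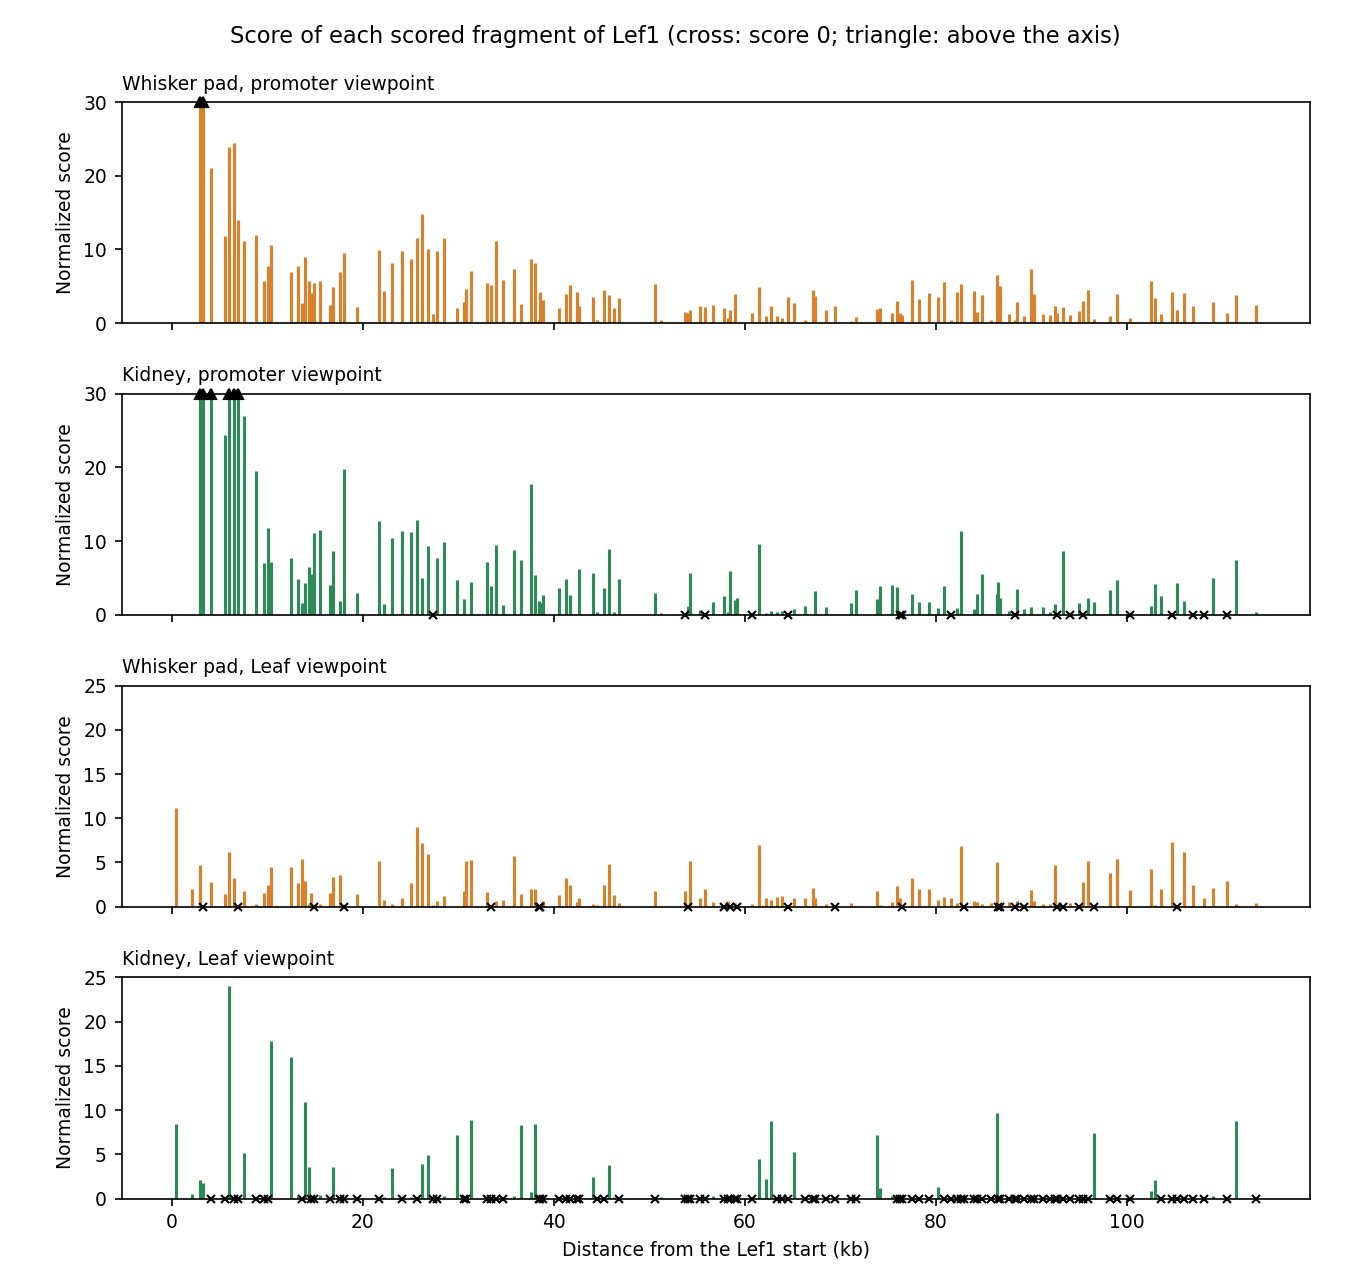
Normalized score (y axis) of each scored *Lef1* fragment at its distance in kb from the gene start (x axis), in 1 panel per library. Crosses mark a score of 0 and triangles scores above the axis; the highest kidney fragment from the promoter reached 150.3, and 101 of 145 fragments were at 0 in the kidney library from Leaf.

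From the promoter, contacts were highest at the 5′ end in both tissues and fell steeply over the first 60 kb. In the first 10 kb, which begin next to the viewpoint, the 10 fragments averaged 22.1 for whisker pad and 45.5 for kidney. In the next 10 kb the means were 6.10 and 7.29. Both tissues then rose again at 20 to 30 kb, to 8.49 and 8.08, and fell through 5.48 and 5.31 at 30 to 40 kb to 3.21 and 3.76 at 40 to 50 kb. At 50 to 60 kb the means were 1.97 and 1.98. The course was therefore not a plain decay, as the bin at 20 to 30 kb exceeded the one before it in both libraries.

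Beyond 60 kb, the promoter profile was flat rather than falling. In whisker pad the bins from 60 kb to the 3′ end had means between 2.15 and 3.11, all above the 1.97 of the bin at 50 to 60 kb. In kidney they lay between 1.36, at 60 to 70 kb, and 2.61. Intron 3 as a whole held 64.8% of the *Lef1* score in whisker pad and 64.0% in kidney, on 89 fragments. Its end and all exons from exon 4 on lie in this flat part, which remained above the mean of the region within 1 Mb in both tissues. The log2-log2 slope of the 12 bin means on distance from the viewpoint was -0.78 in whisker pad and -1.05 in kidney, given as a description. Scores were also corrected for a decay of slope -1 fitted on the fragments above 0 within 1 Mb. The corrected whisker pad means showed no steady course over the whole gene, but all bins beyond 60 kb were higher than that at 50 to 60 kb. They were 1.15 in the first 10 kb, 0.763 at 10 to 20 kb, 1.81 at 20 to 30 kb, 0.878 at 50 to 60 kb and 2.17 at 100 to 110 kb. The corrected kidney means in the same bins were 1.55, 0.616, 1.12, 0.589 and 1.06, with the first bin the highest. In the bins from 60 to 100 kb, the corrected means were 1.20, 1.39, 2.11 and 1.61 in whisker pad. In kidney they were 0.455, 0.903, 1.03 and 0.968. The last, shorter bin had 2.24 in whisker pad, the highest there, and 1.52 in kidney.

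The gene was split at its midpoint into a 5′ segment and a 3′ segment of equal length. The 5′ segment held 75.0% of the *Lef1* score in whisker pad and 84.0% in kidney from the promoter, on 49.0% of the fragments. This share does not depend on how the libraries are scaled to each other. The mean position of the score was 35.2 kb after the start in whisker pad and 25.7 kb in kidney, against 56.7 kb for the fragments themselves. Without the first 20 kb, the 5′ segment held 56.0% and 59.9%, a smaller gap between the tissues than with it. The highest fragment alone, in intron 1, scored 65.1 in whisker pad and 150.3 in kidney and held 8.99% and 16.0% of the summed score.

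From Leaf, which lies 90.9 kb centromeric to the gene start, the course differed between the libraries. The highest bin mean was 2.81 times the lowest in whisker pad, against 11.2 times from the promoter, and 108 times in kidney, against 33.5 times. In whisker pad the means were 2.92, 2.31 and 2.85 in the first 3 bins, 1.94 and 1.64 in the next 2, and 1.04 at 50 to 60 kb, the lowest of the gene. They stayed between 1.12 and 1.27 from 60 to 90 kb and were higher again at 90 to 100 kb, with 1.82, and at 100 to 110 kb, with 2.74. In the last, shorter bin the mean was 1.24 on 3 fragments. The whisker pad profile was thus highest in the first 30 kb and at 100 to 110 kb, and low from 50 to 90 kb, a stretch that holds the end of intron 3 and exons 4 to 9. The bin at 100 to 110 kb lies wholly in intron 11, whose 18 fragments had a mean of 2.66 from Leaf in whisker pad, close to the 2.55 they had from the promoter. The highest fragment of the intron, chr3:131215006-131215353, scored 7.35, and without it the mean at 90 to 110 kb moved from 2.22 to 1.99 over 22 fragments.

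In kidney, the Leaf profile rested on few fragments. The means were 3.49 and 3.50 in the first 2 bins and 1.68 and 1.90 in the next 2. They fell to 0.576 at 40 to 50 kb and 0.0325 at 50 to 60 kb, where 2 of 13 fragments were above 0, and were 1.60 at 60 to 70 kb on 4 of 13. From 70 to 110 kb they lay between 0.322 and 0.783. The last, shorter bin had a mean of 2.91, which came from 1 of its 3 fragments. No rise at 100 to 110 kb was seen in kidney, where 3 of 10 fragments were above 0 with scores of 0.861, 2.11 and 0.249, while 9 of 10 were above 0 in whisker pad.

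**Figure D2:**
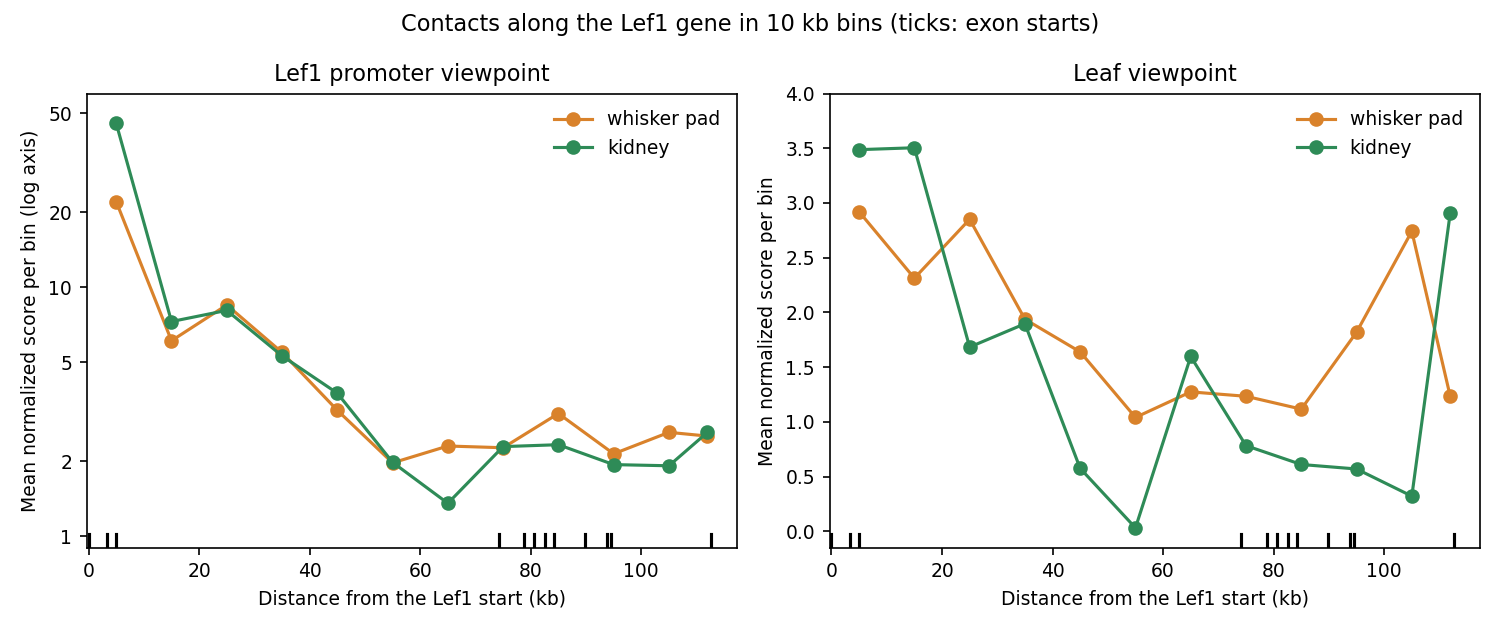
Mean normalized score (y axis, logarithmic for the promoter viewpoint) in 10 kb bins along *Lef1*, by distance in kb from its start (x axis), for whisker pad (orange) and kidney (green); ticks mark exon starts and the last bin is shorter, ending with the gene. From the promoter both tissues fall from above 20 to about 2 by 50 to 60 kb and then flatten, whereas from Leaf the whisker pad is higher again, at 2.74, at 100 to 110 kb.

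The 5′ segment held 60.4% of the Leaf score in whisker pad and 71.2% in kidney, on 49.7% of the fragments. Without the first 20 kb, the shares were 46.4% and 47.3%. The mean position of the score was 49.6 kb in whisker pad and 36.4 kb in kidney, against 55.9 kb for the fragments. From both viewpoints, the kidney score lay closer to the 5′ end than the whisker pad score, and from both viewpoints the gap in 5′ share was smaller without the first 20 kb.

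A stretch of intron 3 about 26 kb after the start scored well from both viewpoints in whisker pad. The 3 neighbouring fragments from chr3:131135797-131136490 to chr3:131137213-131137423 were all chosen by their values. The first was named as the second highest from Leaf in whisker pad, and the others after their values were seen. Their scores from the promoter were 11.6, 14.8 and 10.1 in whisker pad and 12.9, 5.06 and 9.31 in kidney. From Leaf they were 9.05, 7.22 and 5.98 in whisker pad and 0, 3.95 and 4.97 in kidney. The first fragment, chosen for its rank from Leaf in whisker pad, was at 0 from Leaf in kidney. The fragment before them, chr3:131135187-131135792, scored 8.70 from the promoter and 2.64 from Leaf in whisker pad, and the one after, chr3:131137734-131137874, 1.29 and 0.245.

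Of the 3 highest fragments of each library, kidney shared 1 between the viewpoints and whisker pad 0. The highest whisker pad fragment from Leaf had been left empty from the promoter and could not be shared, so these counts are not like for like. In intron 3, chr3:131116217-131116660 was the highest kidney fragment from Leaf, with 24.0, and the second highest kidney fragment from the promoter, with 72.7. In whisker pad it scored 6.20 from Leaf and 23.9 from the promoter. The third highest whisker pad fragment from the promoter, chr3:131116795-131117238, scored 24.4 there, 35.8 in kidney, 3.19 from Leaf in whisker pad and 0 from Leaf in kidney. Across the 143 fragments, Spearman's rho between the viewpoints was 0.42 in whisker pad and 0.34 in kidney, and 0.48 and 0.33 at the 118 fragments beyond 20 kb. These are descriptions, since the fragments share their position, length and mappability.

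In whisker pad, the lead of the promoter over Leaf was smallest at 90 to 110 kb. The bin mean from the promoter was 7.56 times that from Leaf in the first 10 kb and between 1.81 and 2.98 times in the bins from 10 to 90 kb. At 90 to 100 kb it was 1.18 times and at 100 to 110 kb 0.955 times, and in the last bin, on 3 fragments, 2.05 times. Leaf had the higher normalized score at 5 of 70 fragments in the 5′ segment and at 20 of 73 in the 3′ segment. In kidney these counts were 7 and 8, with most fragments at 0 from Leaf. Each viewpoint is scaled to its own region, so that these ratios compare shares of contact and not amounts. The distances to both viewpoints also become more alike along the gene. Its start lies 1.71 kb from the promoter viewpoint and 90.9 kb from that of Leaf, and its end 115.6 and 204.8 kb. The part of distance in these ratios was not tested.

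From the promoter, whisker pad had the higher score at 80 of 143 *Lef1* fragments (55.9%) and kidney at 63 (44.1%). Among all 2007 fragments within 1 Mb, 46.2% were higher in whisker pad and 17.6% were higher in kidney. The remainder were equal, while 0 of the *Lef1* fragments were, so that the shares in the gene and within 1 Mb are not like for like. In the first 10 kb, all 10 fragments were higher in kidney. The log2 ratio of whisker pad to kidney was -0.37 over the gene, -0.54 in the 5′ segment and 0.27 in the 3′ segment. Of the 11 full bins, 0 were more than 2-fold higher in whisker pad, where 37.3% of the 193 bins within 1 Mb were, and 1 was more than 2-fold higher in kidney, where 17.1% were. In any size, 6 bins were higher in whisker pad and 5 in kidney, against 58.5% and 39.9% within 1 Mb. The direction over the whole gene depended on the scale. Divided by the mean of all chromosome 3 fragments, the ratio was 0.36, and divided by the median of the fragments above 0 within 1 Mb it was 0.70, with 11 and 12 of 12 bins higher in whisker pad in place of 6. In the 5′ segment the ratio turned from -0.54 to 0.20 and 0.54 with these 2 scales. Kidney was stronger at the 5′ end relative to the 3′ end. This contrast is the same under every scale, since a scale multiplies all fragments of a library alike.

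From Leaf, whisker pad had the higher score at 98 of 145 fragments (67.6%) and kidney at 25 (17.2%), against 30.6% and 9.89% of the 1992 fragments within 1 Mb. The remainder were equal, namely 22 in *Lef1*, all at 0 in both libraries, and most of those within 1 Mb. With fewer ties in the gene, both shares lie above those within 1 Mb. Neither excess is read as a difference between the tissues. Of the 98, 79 were at 0 in kidney. Of the 44 fragments above 0 in kidney, 42 (95.5%) were also above 0 in whisker pad, and these 42 were 34.7% of the 121 above 0 in whisker pad. The log2 ratio of the means was 0.36 over the gene, 0.13 in the 5′ segment and 0.82 in the 3′ segment. At the 42 fragments above 0 in both, whisker pad averaged 2.65 and kidney 4.73, a log2 ratio of -0.83. This choice of fragments removes all 101 zeros of the kidney library, and 42 of its 44 fragments above 0 remain. Over all 145 fragments the means were 1.85 in whisker pad and 1.43 in kidney. The ratio at the 42 fragments is therefore not read as a direction between the tissues, and the part of the choice in it was not tested. Of the 11 full bins, 4 were more than 2-fold higher in whisker pad, at 40 to 60 kb and 90 to 110 kb, where 47.9% of the 192 bins within 1 Mb were. Of the same bins, 0 were more than 2-fold higher in kidney, against 14.1% within 1 Mb. In any size, 8 were higher in whisker pad and 3 in kidney, against 59.4% and 30.2%. At 0 to 10 kb the direction rested on 1 fragment, since the means of 3.49 in kidney and 2.92 in whisker pad became 1.62 and 2.17 without the highest fragment of each library.

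**Figure D3:**
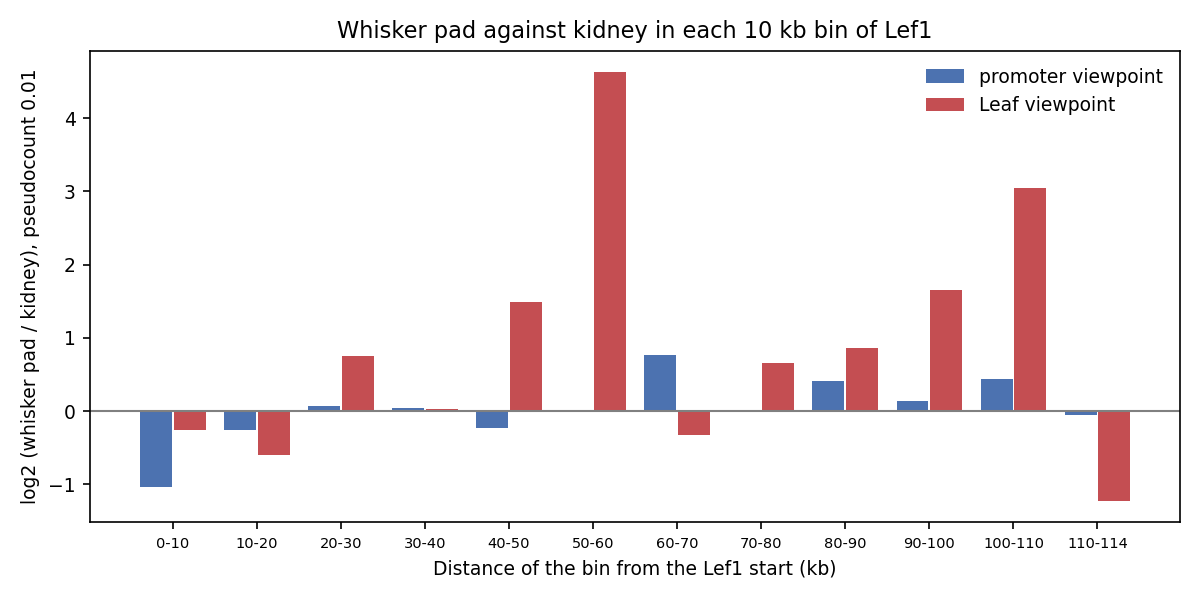
Log2 ratio of whisker pad to kidney (y axis, pseudocount 0.01) of the mean normalized score in each bin of *Lef1* (x axis, distance from the start in kb), from the promoter (blue) and from Leaf (red). The promoter ratios run from -1.04 in the first bin to 0.76, and the Leaf ratio reaches 4.63 at 50 to 60 kb, where the kidney mean is 0.0325.

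The share of fragments above 0 was lower in the 3′ segment than in the 5′ segment in 3 of the 4 libraries. From the promoter, 67 of 70 kidney fragments were above 0 in the 5′ segment and 59 of 73 in the 3′ segment, while all were above 0 in whisker pad. From Leaf, 30 of 72 and 14 of 73 were above 0 in kidney, and 64 of 72 and 57 of 73 in whisker pad. The kidney bin with the lowest detection from Leaf was at 90 to 100 kb, with 1 of 13 fragments.

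**Figure D4:**
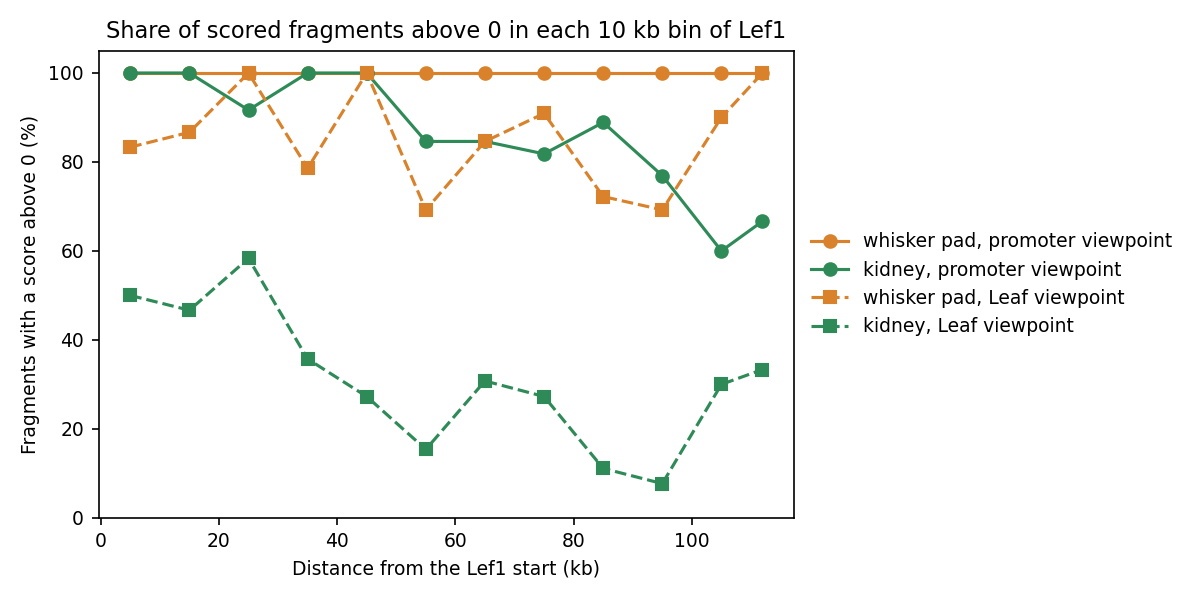
Share of scored fragments with a score above 0 (y axis, percent) in each 10 kb bin of *Lef1* (x axis, distance from the start in kb) for the 4 libraries. Whisker pad from the promoter stays at 100%, kidney from the promoter falls to 6 of 10 fragments at 100 to 110 kb, and kidney from Leaf lies lowest, with 1 of 13 fragments at 90 to 100 kb.

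Position relative to exons was not part of how the fragments were chosen. Of the 145 fragments, 10 overlapped an exon of this transcript and 8 of these had their midpoint beyond intron 3. From the promoter, these 8 had a mean of 4.25 in whisker pad and 2.88 in kidney, against 2.41 and 1.99 for the 43 intronic fragments beyond intron 3. From Leaf the exonic and intronic means were 1.77 and 1.67 in whisker pad and 0.162 and 0.682 in kidney, where 1 of 8 and 7 of 43 were above 0. The exonic fragments were longer, with a median of 529 bp against 311 bp, and longer fragments tended to score higher. Spearman's rho of score with fragment length over the gene was 0.27 in whisker pad and 0.28 in kidney from the promoter, and 0.25 and 0.15 from Leaf. Fragments above 0 from Leaf had a median length of 423 bp in whisker pad and 448 bp in kidney, against 191.5 bp and 311 bp for those at 0. The part of length in the exon values was not tested. With GC content, rho lay between -0.11 and 0.07 in the 4 libraries.

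To see whether the gene stood apart from other chromatin as near to the viewpoint, it was set against the centromeric stretch at the same range of distances. From the promoter, this was the stretch from 1.71 to 115.6 kb away, with 111 fragments. This stretch holds Leaf, which the study reports as a contact of the promoter in whisker pad, so it is not a neutral background. Its mean was 3.14 for whisker pad and 3.77 for kidney, below the 5.07 and 6.57 of *Lef1*, and *Lef1* exceeded it by 0.69 and 0.80 on the log2 scale. Beyond the first 20 kb, the ratios were 0.44 and 0.38. *Lef1* was higher in 8 of 12 bins in whisker pad and in 7 of 12 in kidney. At the distance of the bin at 80 to 90 kb, where Leaf lies, the centromeric means were 3.21 in whisker pad and 1.63 in kidney. *Lef1* had 3.11 and 2.33 in that bin. From Leaf, the stretch lay from 90.9 to 204.8 kb away and had 131 fragments. It holds the site of a reporter insertion, active in embryonic whisker pad, from which the study proposes a centromeric regulatory region of *Lef1*. It is therefore not a neutral background either. Its means were 1.97 and 1.52, and the log2 ratios of *Lef1* to it were -0.10 and -0.08. Beyond the first 20 kb they were -0.15 and -0.65. *Lef1* was higher in 5 of 12 bins in whisker pad and in 6 of 12 in kidney. In whisker pad the centromeric side had a mean of 2.53 at the distance of the bin at 100 to 110 kb, where *Lef1* had 2.74. That centromeric bin held 6 fragments, all above 0.

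**Figure D5:**
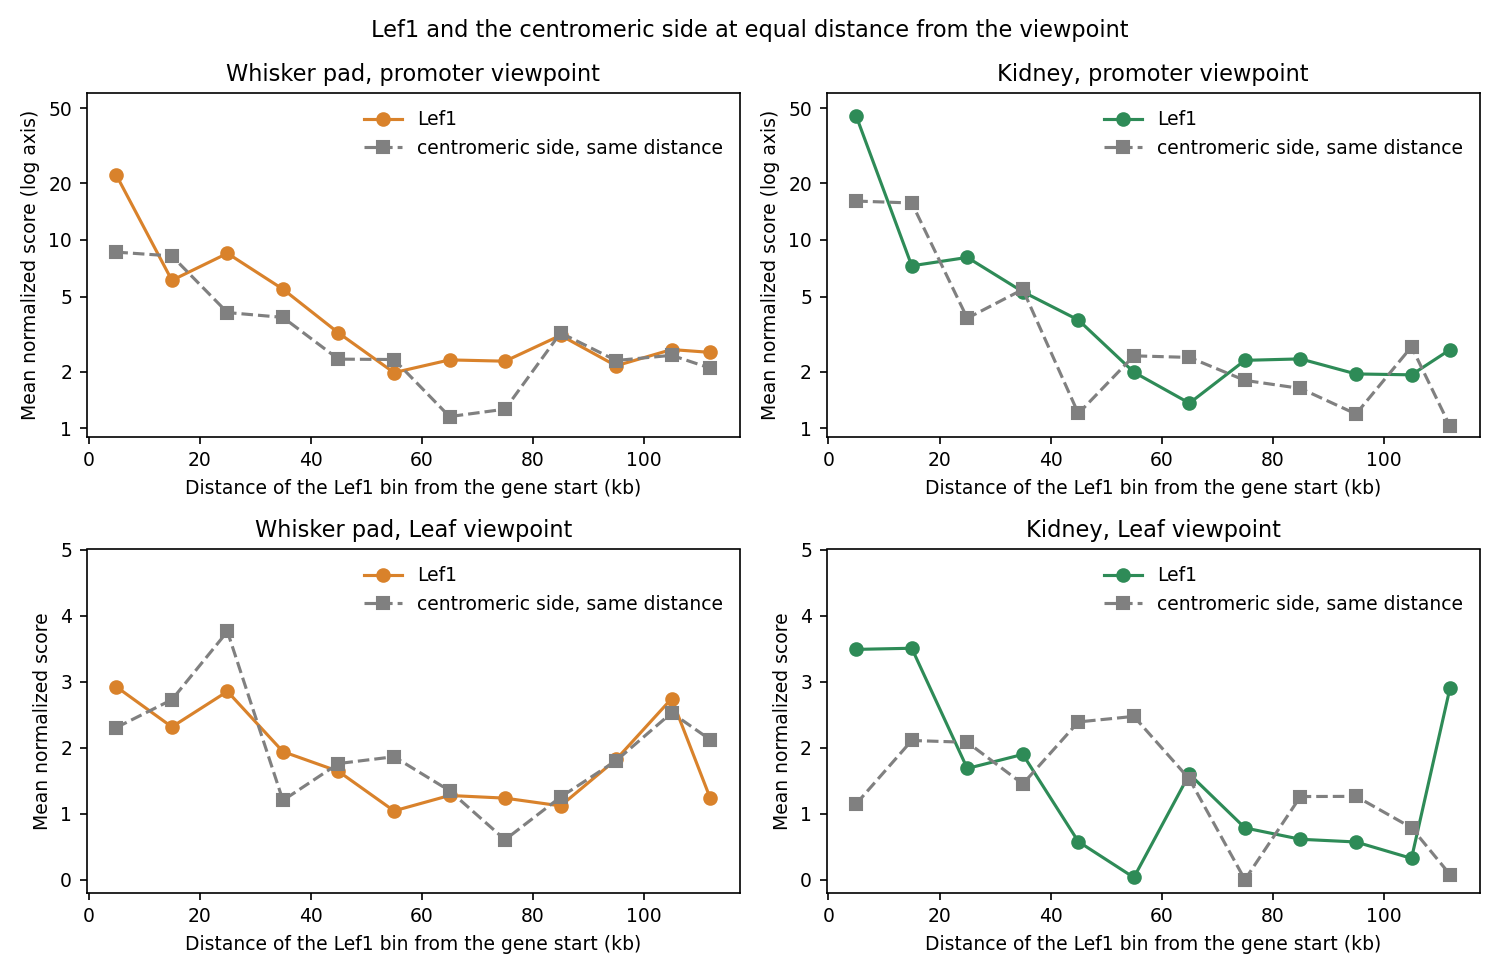
Mean normalized score (y axis, logarithmic for the promoter) in the bins of *Lef1* (circles) and in bins at the same distance on the centromeric side of the viewpoint (grey squares), by the distance of the *Lef1* bin from the gene start in kb (x axis), in 1 panel per library. From the promoter *Lef1* lies above the centromeric side in 8 of 12 bins in whisker pad, and from Leaf in 5 of 12.

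Among the 9 protein-coding genes with at least 4 scored fragments within 1 Mb, the genes whose 4 library means lay nearest to those of *Lef1* were *Hadh*, *Sgms2* and *Ostc*, by Euclidean distance on log2 values with a pseudocount of 0.01 over 4 libraries. *Hadh*, a mitochondrial enzyme of fatty acid oxidation and the next gene on the telomeric side, had means of 1.36 in whisker pad and 0.995 in kidney from the promoter, and of 1.12 and 0.226 from Leaf, at a distance of 4.27. *Sgms2*, a sphingomyelin synthase, had 0.347 and 0.203 from the promoter and 0.244 and 0.493 from Leaf, at 7.05. *Ostc*, a subunit of the oligosaccharyltransferase complex, had 0.416 and 0.223 from the promoter and 0.719 and 0.0626 from Leaf, at 7.51. These genes lie at other distances from the viewpoints, so that their levels are set beside those of *Lef1* as a description only.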

How the data were processed

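The libraries were made with NlaIII and DpnII, and the authors demultiplexed the reads, aligned them to mm10 (Bowtie2 per the labels) and scored each restriction fragment with HTSstation, leaving out a region around each viewpoint. They deposited a raw signal and a smoothed signal per fragment and library. What precedes the raw signal is not given in the sources used here. Raw scores were divided by the library's mean within 1 Mb of the viewpoint, zeros kept. Bins of 10 kb began at the annotated *Lef1* start, and log2 ratios of means used a pseudocount of 0.01. With 1 library per tissue and viewpoint no test was run, and no error between animals can be given. Fragments named were the 3 highest per library and neighbours of the second highest from Leaf in whisker pad, chosen after values were seen. Genes named were the 3 nearest in level to *Lef1*. The gene, bins and comparisons were chosen with earlier results of these data known. Binning and ratios were tested on simulated data without zeros, so that test does not cover the difference in detection between the tissues. Alternatives changed the scaling, fragments, bins, pseudocount, smoothing and distance correction. Genes came from GENCODE M21 and bases from GRCm38.p6, the build of the scores. The tools were pandas 2.3.3 with numpy 2.4.6 under Python 3.11.15, scipy 1.17.1 for rank correlations and Wilson intervals, and matplotlib 3.10.9.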

Additional observations from a re-analysis of the deposited data

Results flagged for a closer look

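From the promoter, the log2 ratio of whisker pad to kidney over *Lef1* was -0.37, while from Leaf it was 0.36. The same opposite signs were found in the 5′ segment, with -0.54 and 0.13. Among the 10 kb bins, the ratios from the promoter and from Leaf were -0.23 and 1.49 at 40 to 50 kb, -0.0074 and 4.63 at 50 to 60 kb, 0.76 and -0.32 at 60 to 70 kb, and -0.015 and 0.65 at 70 to 80 kb. These stood out because the sign from 1 viewpoint was opposite to that from the other. The promoter ratios at 50 to 60 kb and 70 to 80 kb were close to 0. The opposite signs held only on the scale of the region within 1 Mb among the scales compared. Scaled to all of chromosome 3, the ratios were 0.36 and 1.09 over the gene and 0.20 and 0.85 in the 5′ segment, and all 4 of these bins were higher in whisker pad from both viewpoints. The differences were not tested, as there was 1 library per tissue and viewpoint.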

How the results depend on the processing

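No paired analysis was possible because each tissue and viewpoint had 1 library, for which reason no replicate could be left out either. As no value had a test, one was said to have moved beyond 1.5-fold, 10 percentage points for a share of score, or the Wilson interval for a share of fragments, and 80 of 122 alternative values stayed within these limits. From the promoter, the sign of the tissue ratio depended on the scale, on the first 20 kb and on distance correction. The ratio was -0.37 as reported, 0.36 when scaled to all of chromosome 3, 0.70 on the scale of the median nonzero fragment and 1.87 with raw scores. It was 0.13 without the first 20 kb and 0.66 with distance-corrected scores. In its 5′ segment it turned from -0.54 to 0.20 and 0.54 with the first 2 of these scales, and in its 3′ segment it moved from 0.27 to 1.00 and 1.34. From Leaf, the ratio of 0.36 moved to 1.09, 1.82 and 2.34 with the 3 scales and to 1.07 with distance correction, and it reversed to -0.83 at fragments above 0 in both libraries, a choice that removes the kidney zeros. With the first 2 scales its 5′ and 3′ segments moved from 0.13 to 0.85 and 1.60, and from 0.82 to 1.55 and 2.26. Scaling to all of chromosome 3 adds 0.74 from the promoter and 0.72 from Leaf to every log2 ratio up to the pseudocount, and scaling to the median 1.08 and 1.49. The number of bins higher in whisker pad, checked after seeing the data, was 6 from the promoter and 8 from Leaf as reported, 11 and 11 with the first scale and 12 and 12 with the second.

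The mean over the gene is in other units under another scale. For whisker pad and kidney, it was 217.3 and 169.0 from the promoter and 71.5 and 33.7 from Leaf when scaled to all of chromosome 3, and 1.46 and 0.923, and 1.21 and 0.571, with distance correction. Scaled to the median, the kidney means were 4.00 and 0.359. The share of the score in the 5′ segment, 75.0% and 84.0% from the promoter, became 56.0% and 59.9% without the first 20 kb, 41.4% and 49.8% with distance correction, and 49.0% and 53.2% when fragments above 0 were counted. From Leaf, 60.4% and 71.2% became 46.4% and 47.3% without the first 20 kb and 49.3% and 60.9% with distance correction. The whisker pad slope from Leaf moved from -0.82 to -0.54 with bins of 20 kb. For none of them was the cause tested. Read depth is unknown, so that fragments at 0 limit what can be said of the kidney libraries.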
